A study of Mus musculus with 2 samples.

Results

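The MHC class II antigen presentation genes were followed through the salivary gland cells of a mouse strain that develops autoimmune gland disease and of a control strain. The set held 10 genes chosen by symbol from the 50768 genes of the expression matrices, and all 10 were present: the chain genes H2-Aa, H2-Ab1, H2-Eb1 and H2-Ea, the invariant chain gene Cd74, the regulator Ciita, and H2-DMa, H2-DMb1, H2-Oa and H2-Ob. Single-cell RNA sequencing libraries came from the submandibular and sublingual glands of untreated female mice aged 20 weeks, and cells carrying EpCAM or Ter119 (epithelial and erythroid cells) had been depleted. NOD/ShiLtJ, an inbred strain with spontaneous autoimmune disease, was compared with CD-1, an outbred stock used as control, here called NOD and CD1. Each strain gave 1 library of pooled mice, and both libraries carried the same batch label. The number of mice in a pool is 3 in the sample labels and 4 in the methods text. The question was in which cell classes, and at what level, the class II genes were expressed in each strain.

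Class II molecules present peptides from the endosomal pathway to CD4 T cells. The I-A molecule is built from the H2-Aa and H2-Ab1 chains and the I-E molecule from the H2-Ea and H2-Eb1 chains. Cd74 guards the peptide groove of the new molecule, H2-DM exchanges the remaining Cd74 fragment for peptide, and H2-DO, made from H2-Oa and H2-Ob, restrains H2-DM. Ciita is the coactivator that switches these genes on, constitutively in B cells and dendritic cells and after interferon gamma in many other cells, through a shared promoter module that includes an X box and a Y box. NOD mice are known to lack I-E at the cell surface.

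Promoter sequences of RefSeq (build GRCm38.p6, 250 bases before to 50 bases after each start site) were matched by symbol for 6 of the 10 genes. They are shown because this module is the known route by which Ciita acts on class II genes. A pair of strings was searched on both strands, GCAAC for the core of the X box and TGATTGG for the Y box, and both are printed in capitals. TGATTGG was found in the promoters of 5 of the 6 genes, against 7.82% of the 32851 mouse promoters in the table, and GCAAC followed after 8 to 30 bases by TGATTGG was found in 4 of the 6, against 0.21%.
H2-Aa (chr17:34287859-34287918, minus strand): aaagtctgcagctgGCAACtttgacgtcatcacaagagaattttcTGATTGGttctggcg
H2-Eb1 (chr17:34305761-34305820, plus strand): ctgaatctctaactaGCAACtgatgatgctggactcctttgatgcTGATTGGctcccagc
H2-DMb1 (chr17:34153083-34153142, plus strand): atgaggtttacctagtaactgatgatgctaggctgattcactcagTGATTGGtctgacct
H2-Oa (chr17:34092289-34092348, plus strand): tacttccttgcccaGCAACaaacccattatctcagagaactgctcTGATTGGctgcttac
H2-Ob (chr17:34238801-34238860, plus strand): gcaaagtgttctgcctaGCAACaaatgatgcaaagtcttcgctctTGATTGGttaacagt
The Y box started between 63 and 45 bases before the start site in these promoters, and the strings were 23 to 26 bases apart in the 4 that held both. In H2-DMb1 the first string was not found in the printed stretch. A match describes the letters of the reference strain and not binding in these cells.

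Barcodes with at least 500 unique molecular identifiers (UMIs, each counting 1 captured transcript) and 300 genes were taken as cells, which gave 6500 cells in NOD with a median of 5719.5 UMIs and 7014 in CD1 with a median of 6495. The libraries shared 18 cell barcodes. Cells were classed by the UMIs of fixed marker lists, and a class is called "-like" for that reason. All 10 B and all 10 endothelial markers were detected in their own classes, and the macrophage list was led by C1qa, C1qb and C1qc. Of that list Mrc1 was at 15.1 CPM and Cd163 at 0.0429 CPM in macrophage-like cells, and the dendritic markers Plbd1, Naaa and Clec9a were at 158.9, 53.5 and 47.0 CPM there. Levels are UMIs summed over a class and divided by all UMIs of that class (CPM, counts per 1e+06 UMIs), not divided by gene length, and were compared between classes and libraries rather than between genes. With 1 library per strain no difference between strains could be tested. The 95% intervals are exact and cover counting error only, and a fold of 2 stands in for a call. Barcodes with 10 to 100 UMIs served as the measure of free RNA. Reads of NOD and CD1 class II alleles were aligned to a single reference genome, and the effect of their sequence differences on the counts was not tested.

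H2-Ea, the alpha chain of I-E, was nearly absent from both libraries. All barcodes together held 18 H2-Ea UMIs in NOD and 10 in CD1. In cells, 13 H2-Ea UMIs stood beside 51692 UMIs of its partner chain H2-Eb1 in NOD, and 10 beside 168619 in CD1. The count was low in the control library as well as in NOD. Over all classed cells the H2-Ea level was 0.27 CPM in NOD (0.123 to 0.513) and 0.201 CPM in CD1 (0.092 to 0.382), and these intervals overlapped. In NOD, 9 H2-Ea UMIs lay in 9 B-like cells and 4 in cells without a class. In CD1, 7 H2-Ea UMIs lay in 6 macrophage-like cells, and 1 each in a B-like cell, a plasma-like cell and a cell without a class.

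The cells richest in I-A gave the same picture for H2-Ea. Among cells with at least 100 UMIs of H2-Aa and H2-Ab1 together, 2 of 265 NOD cells held an H2-Ea UMI (0.755%, Clopper-Pearson 0.0915 to 2.7%) and 7 of 1589 CD1 cells did (0.441%, 0.177 to 0.905%). No cell held more than 2 H2-Ea UMIs. Of the NOD macrophage-like cells 0 of 677 held H2-Ea, which allows a share of up to 0.443% of cells with an H2-Ea UMI (expressing cells without a captured UMI are not limited by it), and the CD1 level in that class, 0.359 CPM, lies under the 0.788 CPM that a count of 0 allows in NOD. A difference between the strains in H2-Ea was not detectable at this depth. RefSeq lists H2-Ea as a transcribed pseudogene in the reference strain, and the part of the haplotypes of these mice, or of how the gene was annotated for counting, in the low H2-Ea counts was not tested. No gene could be ranked by likeness to H2-Ea, because its UMIs fell short of the minimum of 100.

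**Figure D1:**
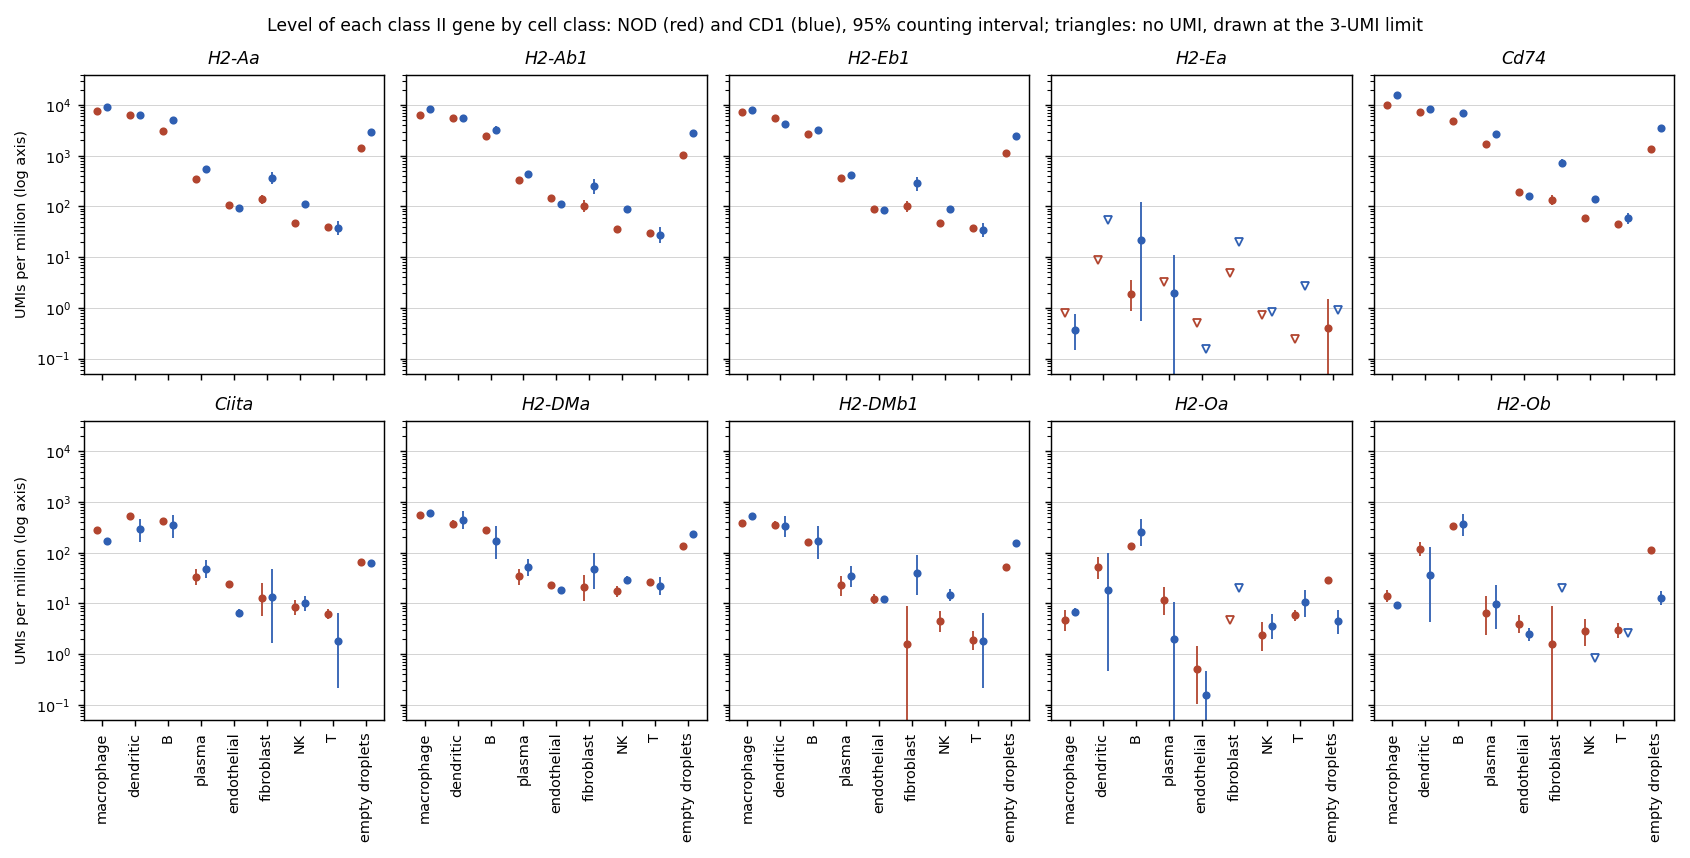
CPM (log axis) of each of the 10 class II genes in 8 cell classes and in empty droplets, with NOD in red, CD1 in blue and bars for the 95% counting interval; open triangles mark classes with no UMI, drawn at the limit that 3 UMIs set. The chain genes and Cd74 sit highest in macrophage-like, dendritic-like and B-like cells, H2-Oa and H2-Ob sit highest in B-like cells, and H2-Ea stays at or near 0 in both libraries.

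The other chain genes and Cd74 were each highest in macrophage-like cells, then in dendritic-like, B-like and plasma-like cells, in both libraries. Their summed level (H2-Aa, H2-Ab1, H2-Eb1 and Cd74, called the class II sum) was highest in macrophage-like cells, at 31006 CPM in NOD and 41129 CPM in CD1. Dendritic-like cells followed with 24672 and 24148 CPM, from only 21 and 2 cells, and then B-like cells with 12953 and 18380 CPM, from 861 and 8 cells. These were the professional antigen-presenting classes. Plasma-like cells held 2762 CPM in NOD and 4083 CPM in CD1. Endothelial-like cells held 537.5 and 452.4 CPM, and T-like cells 152.7 and 158.8 CPM. Free RNA in empty droplets carried 4979.8 CPM in NOD and 11826 CPM in CD1, so the endothelial-like level was 10.8% and 3.83% of the free RNA level and the T-like level 3.07% and 1.34%.

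Class II UMIs were found in nearly every macrophage-like cell. The class II sum had at least 1 UMI in 675 of 677 NOD and 2856 of 2856 CD1 macrophage-like cells. The median macrophage-like cell devoted 3.26% of its UMIs to the class II sum in NOD and 4.21% in CD1, with 5th to 95th percentiles of 0.557 to 7.49% and 0.958 to 8.17%. These ranges overlapped over most of their width. Cells under 1% made up 10.3% of the class in NOD (Clopper-Pearson 8.15 to 12.9%) and 5.18% in CD1 (4.4 to 6.06%). B-like cells of NOD had a median share of 1.25%, and 34% of them lay under 1%.

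**Figure D2:**
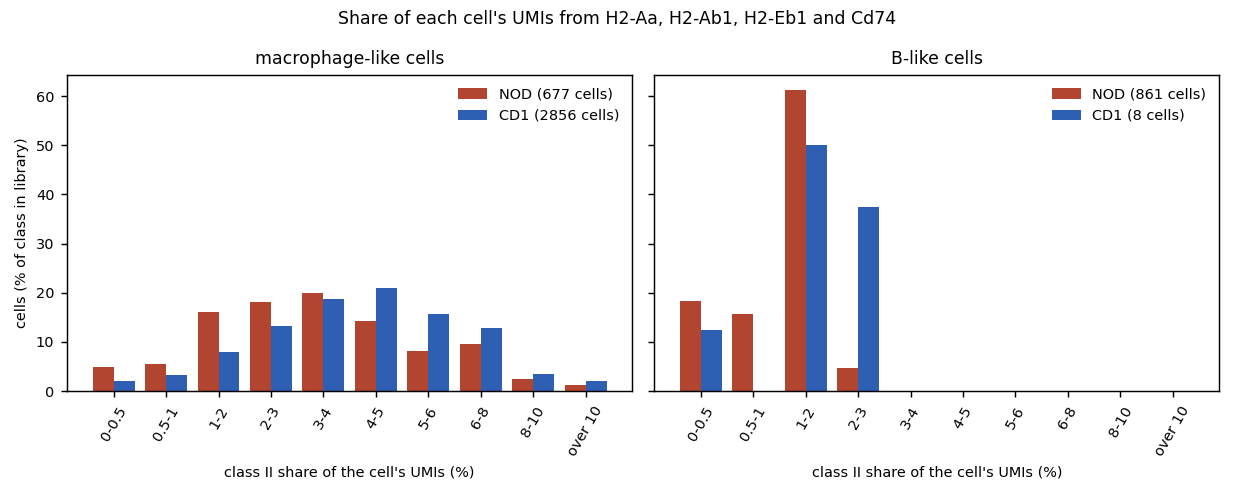
Share of each cell's UMIs (%) that came from H2-Aa, H2-Ab1, H2-Eb1 and Cd74, as bars giving the percent of the class in each library that falls in each bin, for macrophage-like cells (677 NOD and 2856 CD1) and B-like cells (861 NOD and 8 CD1). The NOD macrophage-like bars (red) are shifted to lower shares than the CD1 bars (blue), with medians of 3.26% and 4.21%.

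In macrophage-like cells the chain genes and Cd74 were lower in NOD while Ciita was higher. H2-Aa stood at 7518 CPM in NOD and 9009 CPM in CD1, a log2 ratio of -0.26 (-0.28 to -0.24). H2-Ab1, its partner in I-A, stood at 6343 and 8244 CPM, a log2 ratio of -0.38 (-0.40 to -0.36). H2-Eb1 differed least of the chains, at 7161 and 7990.1 CPM (log2 ratio -0.16), and was 0.00023 with cells thinned to 500 UMIs. Cd74, the invariant chain, differed most, at 9984 CPM in NOD and 15886 CPM in CD1 (log2 ratio -0.67, -0.69 to -0.65). The class II sum had a log2 ratio of -0.41 (-0.42 to -0.40), so CD1 was 1.33-fold higher. Its sign was the same in all 11 alternatives run, from -0.45 to -0.24. Of the 9 members with at least 20 UMIs over both libraries in macrophage-like cells, 0 were 2-fold higher and 0 were 2-fold lower in NOD, where 7.28% and 5.8% of all 14359 genes were.

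Among the peptide-editing genes, H2-DMb1 followed the chains and H2-DMa did so less. H2-DMb1 stood at 377.6 CPM in NOD and 540.1 CPM in CD1 macrophage-like cells (log2 ratio -0.52, -0.60 to -0.44). H2-DMa stood at 559.7 and 608.4 CPM (log2 ratio -0.12, -0.19 to -0.05). The intervals of these H2-DM subunits did not overlap. The H2-DO subunits were scarce in this class, with 18 H2-Oa UMIs in NOD and 132 in CD1, and 54 and 184 UMIs of H2-Ob. H2-Ob was at 14.2 CPM in NOD and 9.43 CPM in CD1 (log2 ratio 0.59, 0.12 to 1.03). That ratio ran from 0.18 with free RNA subtracted to 1.66 with cells thinned to 500 UMIs, and the NOD level was 12.3% of that in empty droplets. The 10 B markers summed to 55.4 CPM in the NOD macrophage-like class, all 10 detected, and to 18.3 CPM in CD1, with 7 of 10 detected and Pax5 and Fcmr among those at 0, and their part in the H2-Ob value was not tested.

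Ciita ran the other way in macrophage-like cells. Its level was 279.3 CPM in NOD (1063 UMIs) and 172.6 CPM in CD1 (3367 UMIs), a log2 ratio of 0.69 (0.59 to 0.79). The Ciita level was higher in NOD under all 11 alternatives, from 0.34 as the mean of per-cell levels to 0.83 as the median within clusters. The share of cells with a Ciita UMI was not higher, at 36.9% of NOD and 43.9% of CD1 macrophage-like cells. With cells thinned to equal depth the shares were 7.39% in NOD (Clopper-Pearson 5.53 to 9.62%) and 6.06% in CD1 (5.21 to 7.0%), and these intervals overlapped. In empty droplets Ciita was at 65.7 and 62.9 CPM, a log2 ratio of 0.06 (-0.19 to 0.32). Macrophage-like cells differed in depth, with a median of 3062 UMIs in NOD and 7107.5 in CD1, and in the clusters that held them.

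Within clusters made without the class II genes, Ciita and the class II sum differed in opposite directions except in cluster 1, where both were lower in NOD, and cluster 19, where both were higher. NOD macrophage-like cells lay mainly in cluster 1 (294 cells), led by Aif1, Wfdc17 and Fth1, and cluster 31 (213 cells), led by Ccl12, Cxcl10 and Chrm3. CD1 cells lay mainly in cluster 27 (971 cells), led by Plxdc2, Frmpd4 and Hpgd, and cluster 1 (704 cells). Cluster 28, a macrophage cluster by its markers and led by Gm53236, Scgb1b27 and Scgb2b27, held 628 CD1 and 20 NOD cells of any class. It was not among the clusters compared, so part of the CD1 macrophage-like class lay outside the comparison. Among the 6 clusters with at least 20 macrophage-like cells from each library, the class II sum was lower in NOD in 5 and higher in 1, from -0.57 to 0.12 on the log2 scale. Ciita was higher in NOD in 5 of these clusters, with the interval above 0 in 4, and lower in 1. In cluster 2 its ratio came from 5 NOD and 7 CD1 UMIs (log2 ratio 1.86, -0.14 to 3.73). The exception for Ciita was cluster 1, with 7 and 24 Ciita UMIs and a log2 ratio of -0.33 (-1.79 to 0.93). In cluster 31 Ciita was at 330.1 CPM in NOD and 178.8 CPM in CD1, while the class II sum was at 31799 and 44065 CPM.

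**Figure D3:**
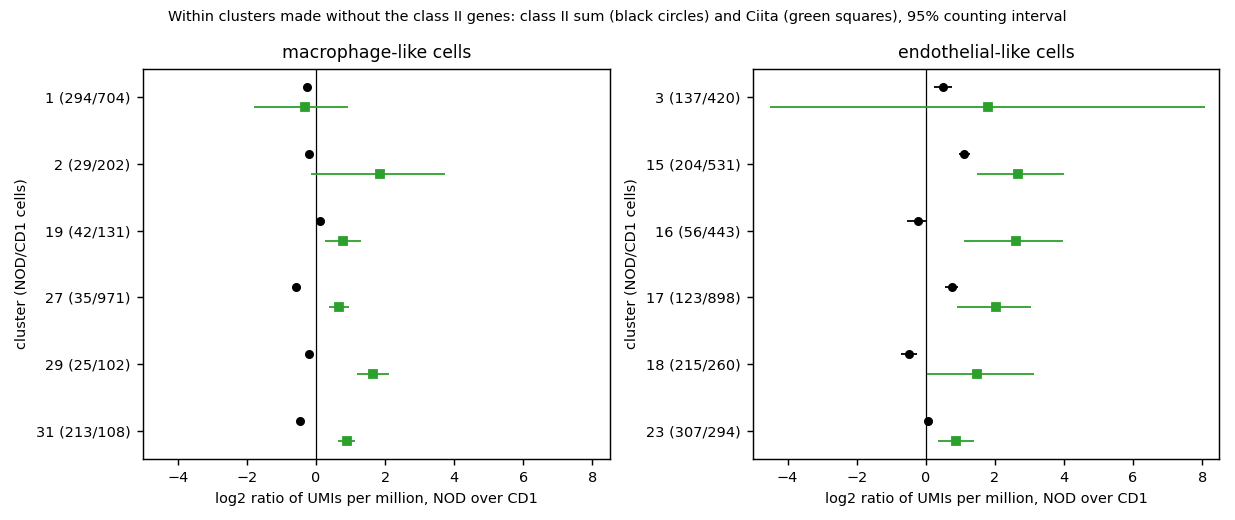
Log2 ratio of CPM, NOD over CD1, of the class II sum (black circles) and of Ciita (green squares) within each cluster that held at least 20 cells of the class from each library, with bars for the 95% counting interval and the numbers of NOD and CD1 cells beside each cluster number. In macrophage-like cells the black circles lie below 0 in 5 of 6 clusters and the green squares above 0 in 5 of 6, with the bar of cluster 2 crossing 0. In endothelial-like cells the green squares lie above 0 in 6 of 6, although in cluster 3 from 1 Ciita UMI in each library.

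Endothelial-like cells carried class II RNA at a low level, concentrated in few cells. Of 1061 NOD cells 164 (15.5%) had at least 5 UMIs of the class II sum and held 74.2% of its UMIs, and of 2874 CD1 cells 315 (11%) did and held 72.2%. Among those, 106 NOD and 143 CD1 cells had no UMI of any macrophage or B marker. After thinning to 500 UMIs the share of cells with a class II UMI was 20.5% in NOD (Clopper-Pearson 18.1 to 23%) and 14.5% in CD1 (13.2 to 15.9%), against 59.4 and 61.1% unthinned. T-like cells, which normally make no class II molecules in the mouse, had thinned shares of 5.94% and 9.29%. H2-Ab1 stood in another proportion to H2-Aa than in free RNA. H2-Ab1 gave 138 UMIs per 100 of H2-Aa in NOD endothelial-like cells (124 to 153) and 74.8 in NOD empty droplets, and 121 and 93.8 in CD1. H2-Eb1 gave 85.9 (76.5 to 96.5) and 80.9 (78.1 to 83.8) in NOD and 90.4 (84.5 to 96.7) and 83.0 (80.6 to 85.5) in CD1, with overlapping intervals.

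Ciita was the member that differed most between the strains in endothelial-like cells. Its level was 23.9 CPM in NOD (143 UMIs, 20.2 to 28.2) and 6.58 CPM in CD1 (127 UMIs, 5.49 to 7.83), a log2 ratio of 1.86 (1.51 to 2.22). It was more than 2-fold higher in NOD under all 12 alternatives, from 1.08 in cells thinned to 500 UMIs to 2.30 in cells with no macrophage or B marker UMI. Of the 8 members with at least 20 UMIs in this class, Ciita alone was 2-fold higher and 0 were 2-fold lower, where 7.8% and 3.99% of 14235 genes were. With free RNA subtracted, H2-Aa (log2 ratio 1.28), H2-Ab1 (1.20) and Cd74 (1.02) passed 2-fold as well. Ciita UMIs were found in 8.01% of NOD and 2.92% of CD1 endothelial-like cells, and in 1.68% and 1.43% of T-like cells. With cells thinned to 500 UMIs the endothelial-like shares rested on 7 NOD and 9 CD1 cells. They were 0.66% (Clopper-Pearson 0.266 to 1.35%) and 0.313% (0.143 to 0.594%), and these intervals overlapped. The median depth was 5038 and 6147 UMIs in endothelial-like cells and 6201 and 7845.5 UMIs in T-like cells.

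The Ciita targets differed little in endothelial-like cells, and their direction depended on which cells were counted. H2-Ab1 was at 145.5 CPM in NOD and 114.0 CPM in CD1 (log2 ratio 0.35, 0.24 to 0.47). Cd74 was at 195.5 and 159.4 CPM (log2 ratio 0.29), H2-Aa at 105.7 and 94.0 CPM (0.17), and H2-Eb1 at 90.8 and 85.0 CPM (0.10, -0.05 to 0.24). The log2 ratio of the class II sum was 0.25 (0.19 to 0.31). It was 1.10 after subtraction of free RNA and 0.77 in cells with no macrophage or B marker UMI, and it turned to -0.41 when cells with only 50% of their marker UMIs from the endothelial list were let in. Within 6 clusters it ranged from -0.48 to 1.11 and was above 0 in 4. The 10 macrophage markers summed to 58.4 CPM in this class in NOD, with 8 detected and Mrc1 and Cd163 at 0, and to 99.97 CPM in CD1, with 9 detected and Cd163 at 0. The 10 B markers summed to 40 and 12 CPM, with 10 and 5 detected.

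**Figure D4:**
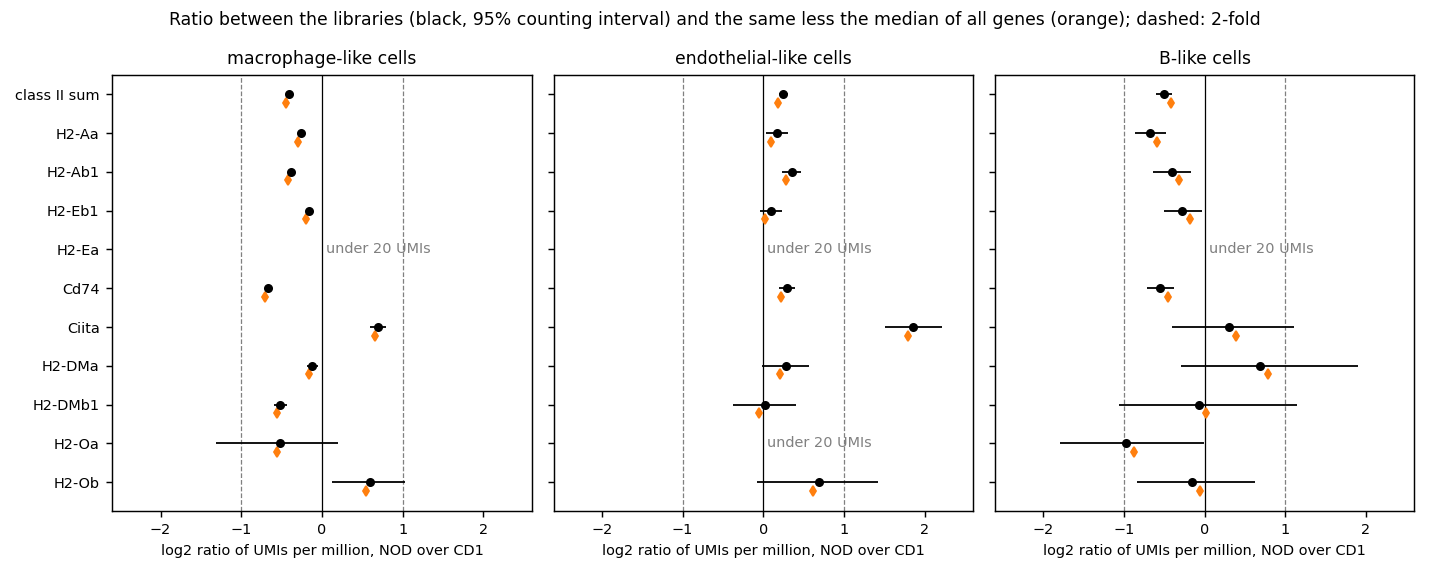
Log2 ratio of CPM, NOD over CD1, of the class II sum and each member in macrophage-like, endothelial-like and B-like cells (black, with 95% counting interval) and the same less the median ratio of all genes in the class (orange); dashed lines mark 2-fold, and members under 20 UMIs are not drawn. Ciita lies to the right of the chain genes and Cd74 in all 3 classes and passes 2-fold in endothelial-like cells, at 1.86.

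Class II RNA differed between endothelial-like cells with capillary, arterial and venous markers. A cell took the subset whose marker list had the most UMIs, at least 2 and with no minimum share. The 901 NOD and 2511 CD1 capillary cells had 535.9 and 458.3 CPM of the class II sum. The arterial cells were lower, with 179.8 CPM in 63 NOD cells (138.8 to 229.2) and 252.5 CPM in 137 CD1 cells (217.4 to 291.6). The venous cells, 21 in NOD and 25 in CD1, were highest, at 1823 CPM (1561 to 2116) and 726.9 CPM (566.7 to 918.4). The macrophage markers summed to 21.2 CPM in the NOD venous cells, with 2 of 10 detected, and to 166.2 CPM in the CD1 venous cells, with 7 of 10 detected. Endothelial-like cells without a subset, 76 in NOD and 198 in CD1, had 695.9 CPM (543.5 to 877.8) and 520.6 CPM (444.2 to 606.4). Median depth was 5369 and 6516 UMIs in capillary cells, 5704 and 5144 in arterial cells, and 3594 and 2333 in venous cells. It was 945 and 1068 UMIs in cells without a subset, and the part of depth in these levels was not tested. By the marker subsets alone the order was arterial, capillary, venous in both libraries. Cluster 15, led by Mecom, Pcsk5 and Col8a1 and with Sema3g, Gja4 and Sox17 among its leading genes, departed from that order in NOD. It had 458.7 CPM in 204 NOD cells, above clusters 16, 17 and 18 (423.0, 383.4 and 277.4 CPM), and 212.1 CPM in 531 CD1 cells. Clusters 3 and 23 were higher than cluster 15, at 928.4 and 746.3 CPM in NOD and 657.6 and 712.2 CPM in CD1. The endothelial-like cells of cluster 3 had medians of only 1059 UMIs in NOD and 1195.5 in CD1.

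B-like cells could be compared only loosely, since CD1 held 8 of them. H2-Aa was at 3110.0 CPM in NOD and 4981 CPM in CD1 (log2 ratio -0.68, -0.87 to -0.48), and Cd74 at 4739 and 6939 CPM (log2 ratio -0.55, -0.71 to -0.39). Ciita was at 428.3 CPM in NOD and 348 CPM in CD1, from 2034 and 16 UMIs, a log2 ratio of 0.30 (-0.40 to 1.11) that held 0. Of the 9 members with at least 20 UMIs, 0 passed 2-fold in either direction, where 14.9% of 10315 genes were 2-fold higher and 18.6% were 2-fold lower. H2-Oa and H2-Ob, the H2-DO subunits, had their highest levels here. H2-Oa was at 132.9 CPM in NOD and 261.0 CPM in CD1 B-like cells, from 631 and 12 UMIs. H2-Ob was at 332.3 and 369.8 CPM, from 1578 and 17 UMIs. In NOD, where the B-like class was large, empty droplets held 28.8 CPM of H2-Oa and 114.9 CPM of H2-Ob, against 4.45 and 13.1 CPM in CD1.

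Plasma-like cells, which descend from B cells, kept Cd74 out of proportion to the chains. They had 1724 CPM of Cd74 in NOD and 2684 CPM in CD1, beside 344.4 and 557.4 CPM of H2-Aa. Per 100 H2-Aa UMIs they gave 501 Cd74 UMIs in NOD (444 to 566) and 481 in CD1 (424 to 549). The same count was 152 and 139 in B-like cells and 96.9 and 121 in empty droplets, so the plasma-like value was apart from both in each library. Ciita in plasma-like cells was at 33.4 CPM in NOD and 48.7 CPM in CD1, against 65.7 and 62.9 CPM in empty droplets, and the CD1 intervals overlapped. These levels came from few cells, with 31 Ciita UMIs in 2 of 51 NOD cells and 25 in 3 of 13 CD1 cells. Of the 13 CD1 plasma-like cells 92.3% were among the highest doublet scores, against 7.84% of the 51 in NOD, and the part of doublets in these values was not tested.

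T-like cells held class II chain RNA at or under a few percent of the free RNA level. Their class II sum had a log2 ratio of -0.06 (-0.28 to 0.17), whose direction changed in 3 of 11 alternatives, and subtraction of free RNA left 0.132 CPM in NOD and 4.94 CPM in CD1. H2-DMa and H2-Oa stood apart from the chains in this class. H2-DMa was at 26.2 CPM in NOD and 22.2 CPM in CD1, or 19.2% and 9.62% of its free RNA level, where H2-Aa was at 2.76% and 1.28%. H2-Oa was at 5.82 CPM (73 UMIs) and 10.6 CPM (12 UMIs). Of the 9 members with at least 20 UMIs, 2 were 2-fold higher in NOD T-like cells and 0 were lower, where 14.2% and 6.42% of 12929 genes were. These were Ciita, with 77 UMIs in NOD and 2 in CD1 (log2 ratio 1.79, -0.11 to 4.86), and H2-Ob, with 37 and 0 UMIs, which passed 2-fold only with 0.5 counts in place of 0. The NOD level of H2-Ob, 2.95 CPM, lay under the upper limit of 3.27 CPM in CD1, and the intervals of all 9 members held 0. In T-like cells with no macrophage or B marker UMI the Ciita ratio turned to -0.41 (-2.49 to 2.75), from 17 and 2 UMIs. The B markers summed to 55.5 CPM in the NOD T-like class, with 10 of 10 detected, and to 22.2 CPM in CD1, with 4 detected, and their part in these values was not tested.

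Fibroblast-like cells showed a difference that rested on very few cells. Their class II sum was 476.7 CPM in 62 NOD cells and 1623 CPM in 16 CD1 cells, a log2 ratio of -1.77 (-2.02 to -1.52). Of the 240 class II UMIs in CD1, 95% came from 2 cells, and of the 297 in NOD, 82.5% came from 3 cells. The 5 members with at least 20 UMIs, the genes of the sum and H2-DMa, were 2-fold lower in NOD, where 5.96% of 6340 genes were 2-fold lower and 16.9% were 2-fold higher. The ratio changed sign, to 0.92, without the cells of highest doublet score, which were 37.5% of the CD1 fibroblast-like cells and 4.84% of those in NOD. The macrophage markers summed to 669.3 CPM in NOD and 1021 CPM in CD1 fibroblast-like cells, with 8 of 10 detected in each and Mrc1 and Cd163 at 0.

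The wider class II pathway was described by a list of 34 genes. In macrophage-like cells 33 of them had at least 20 UMIs, and 6 were 2-fold higher and 0 were 2-fold lower in NOD, against 7.28% and 5.8% of all genes. Irf1, which acts on the inducible Ciita promoter, was at 130.6 CPM in NOD and 81.4 CPM in CD1 (log2 ratio 0.68, 0.53 to 0.83), and the kinase gene Jak2 at 64.4 and 33.3 CPM (0.95). The receptor chain gene Ifngr1 was at 215.5 and 310.2 CPM (-0.53). The genes past 2-fold included H2-Eb2, a class II beta chain gene (1.00), the costimulatory receptor gene Cd40 (1.07), Cd44, a partner of Cd74 (1.44), and the class II receptor genes Lag3 (1.44) and Cd4 (2.73). The 10 T markers summed to 55.4 CPM in this class in NOD and 8.1 CPM in CD1, all 10 detected in each, and their part in the Cd4, Lag3 and Cd44 values was not tested.

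Genes that act on class II promoters or process its cargo differed less in macrophage-like cells. The 9 promoter-binding genes, among them Rfx5, Rfxap, Rfxank and the NF-Y subunits, ranged from -0.45 to 0.32 and 0 passed 2-fold. Spi1 was at 298 and 338.4 CPM (log2 ratio -0.18). The 6 processing genes ranged from -0.16 for Ctss, the protease that trims Cd74 in these cells, to 0.47 for Ctsb, and 0 passed 2-fold. Marchf1, which removes class II from the surface, was at 318.5 and 332.0 CPM (log2 ratio -0.06, -0.15 to 0.03).

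In endothelial-like cells 30 of the 34 pathway genes had at least 20 UMIs, and 4 were 2-fold higher and 2 were 2-fold lower in NOD, against 7.8% and 3.99% of all genes. Irf1 was at 186.0 CPM in NOD and 170.7 CPM in CD1 (log2 ratio 0.12, 0.02 to 0.22). Those higher included H2-DMb2 (30 and 15 UMIs, 2.69), Cd44 (43 and 52 UMIs, 1.42) and Ifng (18 and 4 UMIs, 3.86). The lower pair were Spi1 (6 and 90 UMIs, -2.22) and Cd86 (8 and 75 UMIs, -1.54), both known from macrophages. The T markers summed to 97 CPM in this class in NOD and 6.63 CPM in CD1, all 10 detected in each, and the macrophage markers to the values given above, and their part in these values was not tested.

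Over the 15 combinations of class and library with at least 20 cells, the level of each member was set beside that of the class II sum. Pearson's r of log2(CPM + 10) was 0.99 for H2-Aa, H2-Ab1, H2-Eb1 and Cd74, which make up the sum, 0.96 for H2-DMb1, 0.92 for Ciita and H2-DMa, 0.65 for H2-Ob and 0.48 for H2-Oa. Among 14748 genes with at least 100 UMIs, the 5 outside the set with the most similar pattern included Themis2 (0.96), Spi1 (0.95), Pld4 (0.95) and Pkib (0.95). These are correlations over points that share libraries and free RNA, given as a description. Each of these 4 was above 20 CPM in both macrophage-like and B-like cells and under 5 CPM in endothelial-like and T-like cells of both libraries. In CD1 B-like cells 1 UMI alone gives 21.8 CPM, the level of Pld4 there, so any UMI passes that line.

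**Figure D5:**
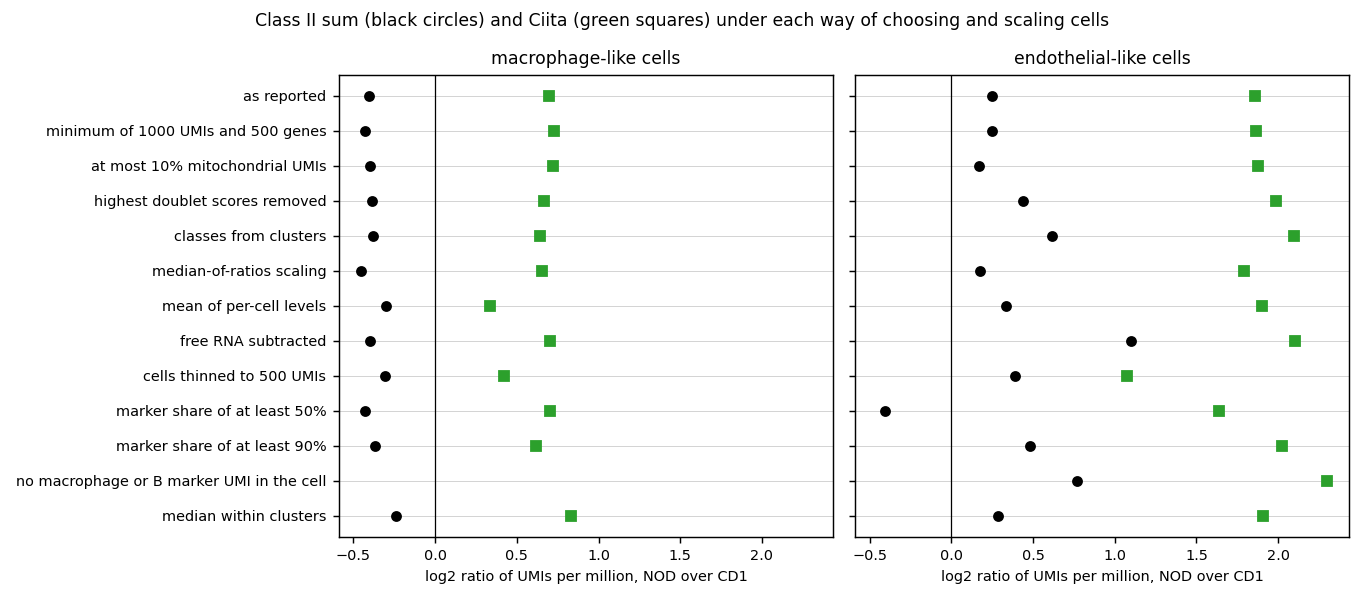
Log2 ratio of CPM, NOD over CD1, of the class II sum (black circles) and of Ciita (green squares) in macrophage-like and endothelial-like cells, as reported and under each other way of choosing or scaling the cells. Ciita lies above 0 in every row of both panels, the macrophage-like class II sum lies below 0 in every row, and the endothelial-like class II sum ranges from -0.41 to 1.10.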

How the data were processed

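Per the file headers, the deposited values were raw UMI counts per gene and barcode for every barcode, not filtered for cells; the authors' processing notes name Cell Ranger 8.0.0 and GRCm39, and Seurat 5.0.1 for later steps not used here. Barcodes with at least 500 UMIs and 300 genes were kept (total counts in cells 43439635 in NOD and 49420810 in CD1). A cell took the class whose marker list had the most UMIs (at least 3, from 2 markers, and 75% of all marker UMIs), which classed 79.3% and 90.6% of cells. Doublets were kept, and Scrublet scores (scanpy 1.11.5) were used as an alternative. Clusters came from 2000 variable genes without the members and immunoglobulin genes, 30 components and Leiden resolution 1.5. Counts were summed per class and library and divided by the class total. Intervals were exact Poisson, Clopper-Pearson or conditional binomial (scipy 1.17.1). A gene with no UMI in 1 library took 0.5 counts for its fold. The calculation of the intervals was checked on simulated macrophage-like sums, where the intervals of 95.9% of 14133 genes held the true ratio. Those counts were independent Poisson draws, the model that the intervals assume. The check therefore does not cover the spread between cells or mice. The members, pathway list and markers were chosen with earlier results of these data known. Named genes were the 10 members, the pathway genes past 2-fold or named by role, and the 5 genes most like the class II sum; some of these are not reported here. The dissociation enzymes differ between the labels and the methods.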

Additional observations from a re-analysis of the deposited data

Results flagged for a closer look

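The class II sum and 3 of its 4 genes had intervals on opposite sides of 0 in macrophage-like and endothelial-like cells. The log2 ratio of NOD over CD1 was -0.41 and 0.25 for the class II sum, -0.26 and 0.17 for H2-Aa, -0.38 and 0.35 for H2-Ab1, and -0.67 and 0.29 for Cd74. With 1 library per strain the difference between the classes was not tested, and the endothelial-like values turned below 0 for all 3 genes when cells with 50% of their marker UMIs from the endothelial list were let in.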

How the results depend on the processing

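No paired analysis was possible because each strain gave 1 library, so no replicate could be left out either. The log2 ratio of the class II sum (NOD over CD1) was recomputed for B-like, dendritic-like, macrophage-like, endothelial-like, T-like and fibroblast-like cells, and values outside the main counting interval follow. The marker shares, the marker-free cells and the within-cluster medians were chosen after seeing the data. With at least 1000 UMIs and 500 genes it was -0.43 in macrophage-like cells. With at most 10% mitochondrial UMIs it was 0.19 in dendritic-like and 0.17 in endothelial-like cells. Without the highest doublet scores it was -0.38 in macrophage-like, 0.44 in endothelial-like, -0.38 in T-like and 0.92 (reversed) in fibroblast-like cells, and no CD1 dendritic-like cell was left. With classes from clusters it was -0.40 in B-like, -1.34 in dendritic-like, -0.38 in macrophage-like, 0.62 in endothelial-like cells and 0.78 in the T-like class. That dendritic-like value came from cluster 21 (23 NOD and 4 CD1 cells), led by Grm8, Il12b and Ccr9. Of the dendritic marker list 3 genes were raised there, and none was among the leading genes. How far these were the cells of the marker class was not tested. Median-of-ratios scaling gave -0.29 in B-like, -0.13 in dendritic-like, -0.45 in macrophage-like and 0.18 in endothelial-like cells. The mean of per-cell levels gave -0.30 in macrophage-like, 0.33 in endothelial-like, -0.34 in T-like and -1.28 in fibroblast-like cells. Subtraction of free RNA gave 1.10 in endothelial-like cells, -5.22 in the T-like class, and left no class II UMI in NOD fibroblast-like cells. Thinning gave -0.13 in dendritic-like, -0.31 in macrophage-like, 0.39 in endothelial-like, -0.43 in T-like and -1.49 in fibroblast-like cells, and 0 H2-Ea CPM in both libraries. A marker share of 50% gave -0.36 in B-like, 0.20 in dendritic-like, -0.43 in macrophage-like, -0.41 in endothelial-like cells and 0.56 in the T-like class, and a share of 90% gave -0.39, 0.12, -0.37, 0.48, -0.85 and, in fibroblast-like cells, -0.92. Marker-free cells gave 0.77 in endothelial-like, -0.61 in T-like and -0.49 in fibroblast-like cells, and clusters a median of -0.24 in macrophage-like cells. That fibroblast-like value came from 12 NOD and 3 CD1 cells with 18 and 2 UMIs (-2.56 to 2.66). The cause of these shifts was not tested. Ciita kept its direction in macrophage-like, endothelial-like and B-like cells in every alternative run. The counts of genes past 2-fold moved with the minimum of 20 UMIs. With at least 50 UMIs 930 were lower in B-like cells (1923 as reported), 571 higher and 465 lower in macrophage-like cells (1045 and 833), 617 and 321 in endothelial-like cells (1111 and 568), 1129 and 498 in T-like cells (1833 and 830), and 400 and 89 in fibroblast-like cells (1073 and 378). With at least 1 UMI these were 10503 lower in B-like cells, 3843 and 1819, 4333 and 1873, 6164 lower in T-like cells, and 2824 and 2621. Depth limited the comparison of H2-Ea between the strains and all values of the 8 B-like and 2 dendritic-like CD1 cells.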

Other observations

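Ciita and its targets also parted between clusters of macrophage-like cells within each library. Cluster 1, with a median of 1598.5 UMIs per cell, had the highest class II sum of the 6 clusters compared, at 44063 CPM in NOD and 53130 CPM in CD1, and the lowest Ciita, at 14.4 and 18.1 CPM. Cluster 19, led by Frmpd4 and Cadm1 among its named genes, had the lowest class II sum, at 11043 and 10141 CPM, and Ciita at 369.5 and 215.2 CPM. Its depth was low as well, with a median of 1940.5 UMIs. Clusters 27, 29 and 31, with medians of 8898, 10325 and 9551 UMIs, lay between clusters 1 and 19 for the class II sum. The medians given for these clusters cover all of their cells, not the macrophage-like ones alone. The macrophage-like cells of cluster 29 had medians of 2923 UMIs in NOD and 7611 in CD1, and those of cluster 19 had 2619 and 2263. Cluster 2, also of low depth (a median of 1531 UMIs) and led by the secretory genes Mucl1 and Mucl2, resembled cluster 1. It had 40072 and 46007 CPM of the class II sum and 72.4 and 19.9 CPM of Ciita, the latter from 5 and 7 UMIs. The clusters were made without the class II genes, they differ in depth as well as in their leading genes, and the part of depth in these levels was not tested.

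NK-like cells, which were not among the classes compared, had 189.2 CPM of the class II sum in 484 NOD cells and 429.9 CPM in 323 CD1 cells, and 1 CD1 cell held 1075 of the 1526 UMIs there. In NK-like cells with no macrophage or B marker UMI the levels were 241.2 CPM in NOD and 107.0 CPM in CD1, and 1 NOD cell held 360 of the 645 UMIs there.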
